A study of Mus musculus with 16 samples.

Results

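The opioid receptor genes of mouse are Oprk1 (ENSMUSG00000025905), Oprm1 (ENSMUSG00000000766), Oprd1 (ENSMUSG00000050511) and Oprl1 (ENSMUSG00000027584), and their transcripts were followed in cultured embryonic sensory neurons. They were taken from a gene count table by matching its Ensembl identifiers to these symbols, which found 4 of the 55356 identifiers in the table. Oprm1, Oprd1 and Oprk1 encode the mu, delta and kappa receptors, the targets of morphine-like drugs and of endorphins, enkephalins and dynorphins, and Oprl1 encodes the related nociceptin receptor. All are receptors that couple to inhibitory G proteins, which slow adenylyl cyclase, open G protein-gated potassium channels (GIRK channels) and restrain presynaptic calcium channels. On pain-sensing neurons of the dorsal root ganglion (DRG) they lower excitability and transmitter release, which is one basis of peripheral opioid analgesia.

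The neurons came from DRG of embryos of CD1, an outbred mouse stock, and were grown with nerve growth factor at 50 ng/ml, and with 1 µM each of uridine and 5-fluoro-2'-deoxyuridine, an agent that kills dividing cells. After 6 days in culture, cells received GNE3511, an inhibitor of the dual leucine zipper kinase DLK, at 500 nM or its solvent DMSO, and 15 min later 200 nM nocodazole, a drug that takes microtubules apart, or DMSO, for 16 h. The 4 groups of 4 libraries were inhibitor plus nocodazole, nocodazole (after DMSO), inhibitor (followed by DMSO) and DMSO (at both steps). Only 1 inhibitor at 1 dose was used, so effects through DLK and through any other target of GNE3511 cannot be told apart. DLK is a stress kinase of neurons that signals axon damage to the nucleus, and the design asks which transcript changes caused by microtubule loss need it. The labels do not say whether replicates were separate cultures, so the variation that the p-values rest on, that among these libraries, may be technical.

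The libraries, made from total RNA after removal of ribosomal RNA, held 30987962 to 43321421 counts. Levels are given as CPM, counts scaled by edgeR to a common library size. Sensory neuron transcripts were abundant, with 10 pan-neuronal markers summing to 5755 to 7305 CPM over the 16 libraries. The 8 glial markers summed to 74.1 to 175 CPM. Of these, 6 averaged under 1 CPM in every group, while S100b averaged 54.9 to 94.6 CPM and Mbp 51.2 to 68.4 CPM. All 4 endothelial markers averaged under 1 CPM in every group. The 8 markers of peptidergic nociceptors, the pain-sensing neurons that release neuropeptides, summed to 2605 to 2978 CPM with inhibitor plus nocodazole, 2635 to 2896 CPM with nocodazole, 2742 to 3132 CPM with inhibitor and 3333 to 3621 CPM in DMSO cultures.

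Some libraries stood apart from others of their group. Replicate 1 of inhibitor plus nocodazole had the lowest value of its group for all 4 receptors, and so had replicate 2 of the inhibitor group. In replicate 1 of inhibitor plus nocodazole the 6 markers of large-fibre sensory neurons summed to 305 CPM, against 616 to 650 CPM in the other libraries of its group. In inhibitor replicate 2 the same markers summed to 396 CPM, against 475 to 680 CPM in the rest of its group. Mitochondrial transcripts took 0.765% to 1.78% of counts over the 16 libraries, with 1.71% and 1.39% in these libraries and the highest share in inhibitor replicate 3. In nocodazole replicates 1 and 2 the large-fibre markers summed to 362 and 279 CPM, against 581 and 563 CPM in replicates 3 and 4. No DMSO library was below 631 CPM. The glial markers summed to 86.4, 85.8, 130 and 134 CPM in nocodazole replicates 1 to 4. Nocodazole replicate 3 had the highest Oprk1, Oprl1 and Oprm1 of its group. Replicate 4 came next for Oprl1 and Oprm1 but not for Oprk1. The part of these differences in the receptor results was not tested. The changes, interactions, shares and ratios of the receptors are given also with some libraries left out. Those left out were replicate 1 of inhibitor plus nocodazole, inhibitor replicate 2 and nocodazole replicate 3.

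The promoters of receptors that fell with nocodazole are shown. The Oprd1 window differed in base composition and motifs from those of Oprm1 and Oprl1. Which of the annotated starts these neurons use was not tested. RefSeq windows on GRCm38.p6 were matched for 3 of the 4 receptors (1 for Oprd1, 3 each for Oprm1 and Oprl1), and the 250 bases before 1 start of each follow, 5′ to 3′ on the gene's strand, with capitals marking matches to CACGTG (an E-box) or GGGCGG (a GC box) on either strand. They lie at chr4:132144487-132144736 (minus strand) for Oprd1, chr10:6788320-6788569 (plus strand) for Oprm1 and chr2:181714766-181715015 (plus strand) for Oprl1.
Oprd1: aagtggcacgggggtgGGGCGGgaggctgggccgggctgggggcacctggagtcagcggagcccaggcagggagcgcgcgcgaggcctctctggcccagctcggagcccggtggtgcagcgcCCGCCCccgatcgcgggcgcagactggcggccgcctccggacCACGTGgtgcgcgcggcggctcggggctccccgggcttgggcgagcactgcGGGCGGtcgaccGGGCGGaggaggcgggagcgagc
Oprm1: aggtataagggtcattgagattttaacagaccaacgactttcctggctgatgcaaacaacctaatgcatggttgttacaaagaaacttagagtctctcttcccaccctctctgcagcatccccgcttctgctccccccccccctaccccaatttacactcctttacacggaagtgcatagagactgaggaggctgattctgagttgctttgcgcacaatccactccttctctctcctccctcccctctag
Oprl1: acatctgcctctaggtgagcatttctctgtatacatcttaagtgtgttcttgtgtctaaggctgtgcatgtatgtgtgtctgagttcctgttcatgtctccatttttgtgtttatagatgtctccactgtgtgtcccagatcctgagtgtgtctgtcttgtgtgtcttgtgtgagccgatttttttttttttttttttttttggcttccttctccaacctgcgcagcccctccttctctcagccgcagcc

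The Oprd1 window was 80.0% G and C, against 50.0% for this Oprm1 window, 44.4% for this Oprl1 window and a median of 52.4% over 32851 mouse promoter windows. The windows not printed were 45.6% and 50.8% for Oprm1 and 54.8% and 48.8% for Oprl1. The Oprd1 window held 4 GC boxes, a motif found in 32.7% of all windows, and 1 E-box, starting 86 bases before the start site and found in 6.02%. None of the 7 windows of the 3 genes held TGANTCA (the AP-1 motif, in 6.75% of windows), TGACGTCA (the cyclic AMP response element, in 1.55%) or its core TGACG (in 17.8%), and the Oprm1 and Oprl1 windows held none of the 5 motifs. These are matches of letters in short windows, and the core lies within the full cyclic AMP element.

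Oprk1, the kappa receptor gene, had the widest range of the 4 as a ratio of its highest to its lowest library. It had 2.35, 11.6, 7.35 and 12.5 CPM with inhibitor plus nocodazole (replicates 1 to 4) and 0.441, 0.509, 1.24 and 0.488 CPM with nocodazole (15 to 41 counts). It had 16.4, 3.78, 11.7 and 10.4 CPM with inhibitor and 4.60, 5.36, 6.54 and 7.20 CPM in DMSO (148 to 284 counts). Every nocodazole library was below every library of the other groups, and nocodazole replicate 3 lay well above the rest of its group.

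Oprd1, the delta receptor gene, split the libraries into 3 tiers. It had 4.64, 7.14, 6.24 and 8.03 CPM with inhibitor plus nocodazole, 1.19, 0.808, 1.15 and 0.846 CPM with nocodazole, 8.01, 6.07, 6.61 and 6.20 CPM with inhibitor and 3.17, 3.49, 2.86 and 2.92 CPM in DMSO. The nocodazole libraries were lowest and the 8 inhibitor-treated libraries highest, with the DMSO libraries between them and no overlap.

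Oprl1, the nociceptin receptor gene, had 4.96, 5.59, 6.89 and 6.18 CPM in nocodazole libraries. It had 12.4, 24.3, 22.1 and 23.5 CPM with inhibitor plus nocodazole, 28.3, 15.7, 22.1 and 25.5 CPM with inhibitor and 23.0, 28.8, 22.4 and 27.9 CPM in DMSO, and no library of these 3 groups reached down to the nocodazole range.

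Oprm1, the mu receptor gene and the most counted of the 4, had 56.5, 99.1, 86.6 and 90.8 CPM with inhibitor plus nocodazole and 41.9, 38.3, 80.7 and 52.1 CPM with nocodazole, against 112, 69.2, 84.9 and 100.7 CPM with inhibitor and 111, 119.6, 122 and 127 CPM in DMSO. Nocodazole and DMSO libraries did not overlap, but nocodazole replicate 3, at 80.7 CPM, lay inside the range of both inhibitor-treated groups.

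**Figure D1:**
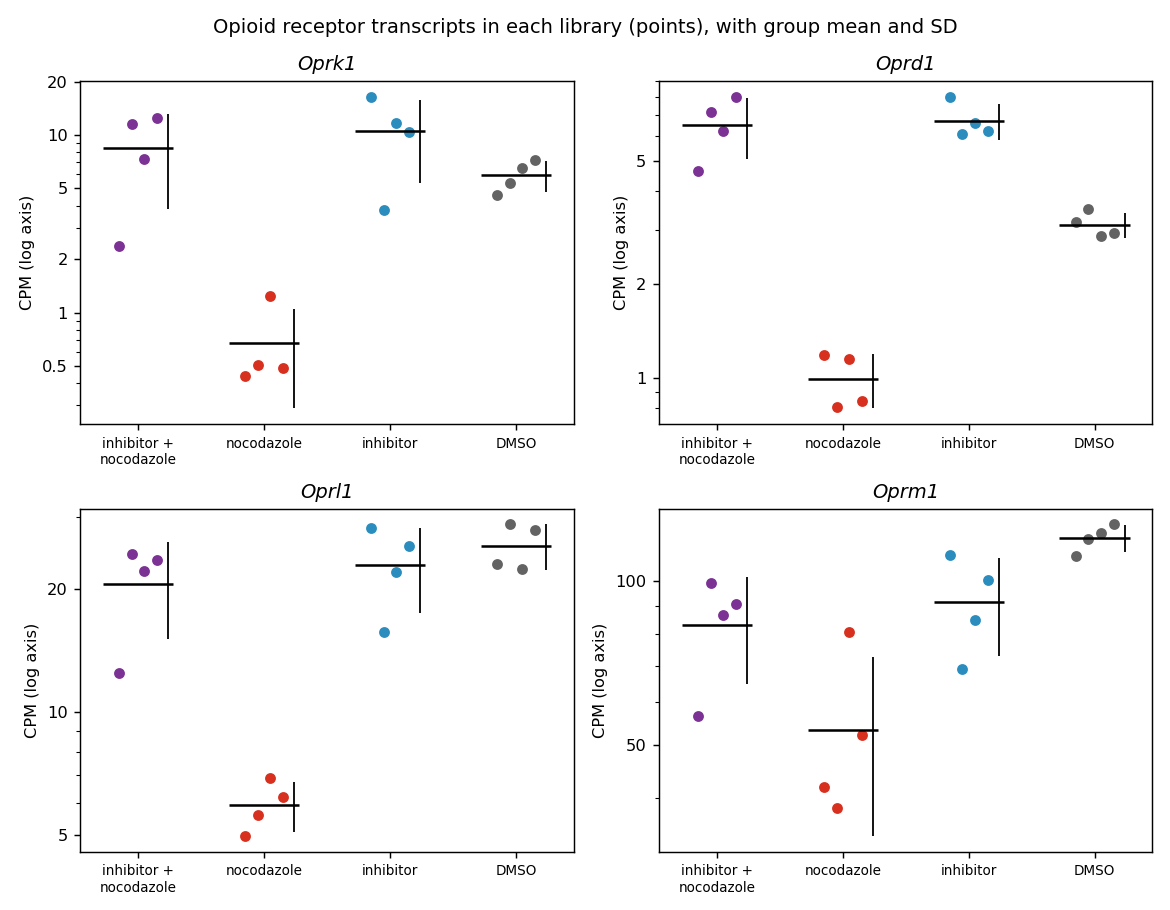
CPM of each opioid receptor gene in the 16 libraries (points, replicates 1 to 4 from left to right in a group; log axis), with the group mean (horizontal line) and SD (vertical line, cut at the bottom where it would leave the panel). The nocodazole libraries were the lowest for Oprk1, Oprd1 and Oprl1, at means of 0.669, 0.997 and 5.91 CPM, and their Oprm1 range overlapped those of the inhibitor-treated groups.

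All 4 receptors fell in cultures given nocodazole without inhibitor. By edgeR's quasi-likelihood test with Benjamini-Hochberg adjustment over 19156 genes, 4 of 4 receptors passed an adjusted p of 0.05 and fell in nocodazole relative to DMSO, where 19.0% of all tested genes fell and 18.6% rose. Their median log2 change was -1.87, beside 0.01 over all tested genes.

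Oprk1 averaged 0.669 ± 0.381 CPM in nocodazole and 5.93 ± 1.16 CPM in DMSO (SD, n = 4 each), a log2 change of -3.14 ± 0.536 (SE; adjusted p from edgeR 0.000235), which ranked 23 from the lowest of all tested genes. Without nocodazole replicate 3 the Oprk1 change was -3.64, and those of Oprl1 and Oprd1 were -2.21 and -1.72. Over all fits that left out 1 library, the change was -3.64 to -2.98 for Oprk1 and -2.21 to -2.04 for Oprl1. In those fits it was -1.73 to -1.54 for Oprd1 and -1.46 to -1.05 for Oprm1. Oprl1 averaged 5.91 ± 0.822 CPM and 25.5 ± 3.28 CPM in the same groups, a log2 change of -2.11 ± 0.207 (adjusted p from edgeR 1.19e-06). Oprd1 averaged 0.997 ± 0.198 CPM in nocodazole and 3.11 ± 0.287 CPM in DMSO, a log2 change of -1.63 ± 0.186 (adjusted p from edgeR 5.28e-06). The mu receptor had the smallest log2 change of the 4, with Oprm1 at 53.3 ± 19.2 CPM in nocodazole and 120.1 ± 6.72 CPM in DMSO, a log2 change of -1.17 ± 0.210 (adjusted p from edgeR 0.000364), and -1.46 without nocodazole replicate 3. In folds, Oprk1, Oprl1, Oprd1 and Oprm1 were 8.84, 4.32, 3.10 and 2.26 times lower in nocodazole than in DMSO.

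Neuronal markers are set beside this result. The pan-neuronal sum was 6323 to 7305 CPM in nocodazole and 6770 to 7299 CPM in DMSO. Of the 10 markers 2 rose, 3 fell and 5 did not pass. Over all tested genes 18.6% rose and 19.0% fell in nocodazole versus DMSO. The peptidergic sum, given above, did not overlap between these groups, 4 of its 8 markers fell and their median log2 change was -0.38. The large-fibre sum was 279 to 581 CPM in nocodazole and 631 to 725 CPM in DMSO, and of 5 markers tested 2 fell and 3 did not pass. The sum of 6 markers of nonpeptidergic nociceptors, in contrast, was higher, at 1432 to 1552 CPM in nocodazole and 1199 to 1337 CPM in DMSO. These markers did not move together: of 4 tested, 2 rose, 1 fell and 1 did not pass. The one that fell was Gfra2, at 0.939 CPM in nocodazole and 3.69 CPM in DMSO. Ret and P2rx3, at 860 and 609 CPM in nocodazole, made up most of the sum, and Mrgprd and Lpar3 were too low to be tested. The glial sum was 85.8 to 134 CPM in nocodazole and 151 to 175 CPM in DMSO, without overlap. Of 4 glial markers tested, 1 rose, 1 fell and 2 did not pass. Fibroblast markers summed to 5.35 to 8.07 CPM in nocodazole and 2.11 to 5.07 CPM in DMSO. Of 5 fibroblast markers tested, 1 rose and 4 did not pass. Dcn, the highest of them in nocodazole, averaged 3.27 CPM there and 1.06 CPM in DMSO. In bulk RNA, fewer cells of a type and less receptor RNA per cell cannot be told apart, and the part of these markers in the receptor result was not tested.

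With the inhibitor alone, 1 receptor rose. Oprd1 averaged 6.73 ± 0.889 CPM with inhibitor and 3.11 ± 0.287 CPM in DMSO (SD, n = 4 each), a log2 change of 1.11 ± 0.167 (adjusted p from edgeR 0.000578) or 2.16 times higher. Across all tested genes 5.78% rose and 7.24% fell in this comparison. Oprk1 was at 10.6 ± 5.22 CPM with inhibitor and 5.93 ± 1.16 CPM in DMSO, and its log2 change of 0.83, with a 95% interval of -0.09 to 1.76, did not pass (adjusted p from edgeR 0.213). Without inhibitor replicate 2 the Oprk1 change was 1.11 and still did not pass (adjusted p from edgeR 0.109), and those of Oprd1, Oprl1 and Oprm1 were 1.16, -0.014 and -0.28. Oprl1 was at 22.9 ± 5.42 CPM with inhibitor and 25.5 ± 3.28 CPM in DMSO, with a 95% interval of the log2 change of -0.56 to 0.25. Oprm1 was at 91.7 ± 18.7 CPM and 120.1 ± 6.72 CPM in the same groups, with an interval of -0.83 to 0.05 (adjusted p from edgeR 0.220). Oprm1 passed when only these 2 groups were fitted (adjusted p from edgeR 0.0495), while fits without 1 library left it uncalled.

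In cultures given the inhibitor, no receptor passed the threshold for a change with nocodazole. Relative to inhibitor alone, inhibitor plus nocodazole gave log2 changes of -0.33 for Oprk1 (95% interval -1.24 to 0.58), -0.05 for Oprd1 (-0.39 to 0.29), -0.15 for Oprl1 (-0.56 to 0.25) and -0.14 for Oprm1 (-0.58 to 0.30). None of the 4 had an unadjusted p below 0.05, the lowest edgeR p being 0.435 for Oprl1, and none was called by DESeq2 or limma voom. By edgeR 16 genes in all, or 0.0835% of those tested, were called in this comparison, and DESeq2 called 125 genes. With 1 library left out the edgeR count was 3 to 88. The count of 88 came without replicate 1 of inhibitor plus nocodazole, and there the changes of Oprd1, Oprl1 and Oprm1 were 0.09, 0.03 and 0.01, so that their sign turned, while that of Oprk1 was -0.015. Without inhibitor replicate 2 the changes of Oprk1, Oprd1, Oprl1 and Oprm1 were -0.61, -0.094, -0.30 and -0.25.

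Among nocodazole-treated cultures, all 4 receptors rose with the inhibitor, while 17.7% of all tested genes rose and 16.2% fell. The nocodazole libraries here are those of the comparison with DMSO, so this rise and that fall are not independent results. Oprk1 averaged 8.44 ± 4.63 CPM with inhibitor plus nocodazole and 0.669 ± 0.381 CPM with nocodazole (SD, n = 4 each), a log2 change of 3.65 ± 0.536 (adjusted p from edgeR 6.16e-05), which ranked 15 from the highest of all tested genes. The Oprk1 change was 3.97 without replicate 1 of inhibitor plus nocodazole and 4.12 without nocodazole replicate 3. Oprd1 averaged 6.51 ± 1.45 CPM and 0.997 ± 0.198 CPM in these groups, a log2 change of 2.70 ± 0.185 (adjusted p from edgeR 2.85e-08). Oprl1 averaged 20.6 ± 5.51 CPM with inhibitor plus nocodazole and 5.91 ± 0.822 CPM with nocodazole, a log2 change of 1.80 ± 0.207 (adjusted p from edgeR 5.36e-06). Without replicate 1 of inhibitor plus nocodazole and without nocodazole replicate 3, Oprd1 was at 2.83 and 2.76 and Oprl1 at 1.98 and 1.88. Over all fits that left out 1 library, the changes were 3.40 to 4.12 for Oprk1, 2.58 to 2.83 for Oprd1 and 1.70 to 1.98 for Oprl1. In folds, Oprk1, Oprd1 and Oprl1 were 12.5, 6.48 and 3.48 times higher with the inhibitor.

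The Oprm1 difference in this comparison passed in the full fit and in some of the fits that left out a library. Oprm1 averaged 83.3 ± 18.6 CPM with inhibitor plus nocodazole and 53.3 ± 19.2 CPM with nocodazole, a log2 change of 0.64 ± 0.209 (adjusted p from edgeR 0.0246). Its call was lost without replicate 2, 3 or 4 of inhibitor plus nocodazole (adjusted p from edgeR 0.0821, 0.0575 and 0.0617) and without replicate 1, 2 or 4 of nocodazole (0.0797, 0.0773 and 0.0588). It held without replicate 1 of inhibitor plus nocodazole, at a log2 change of 0.79, and without nocodazole replicate 3, at 0.91.

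Set against DMSO cultures, those with inhibitor plus nocodazole differed in 1 receptor. Oprd1 rose by a log2 change of 1.07 ± 0.167 (adjusted p from edgeR 0.000463), in a comparison where 8.26% of tested genes rose and 8.48% fell. Oprk1 and Oprl1 had log2 changes of 0.50 and -0.31 (adjusted p from edgeR 0.473 and 0.297). Oprm1 was at 83.3 ± 18.6 CPM with inhibitor plus nocodazole and 120.1 ± 6.72 CPM in DMSO, a log2 change of -0.53 with a 95% interval of -0.97 to -0.09, and its adjusted p of 0.0920 from edgeR did not pass. It passed with DESeq2 (0.0491), with edgeR on these 2 groups alone (0.0241) and with edgeR without nocodazole replicate 3 (0.0269). Without replicate 1 of inhibitor plus nocodazole, Oprd1 was at 1.20, Oprk1 at 0.82, Oprl1 at -0.13 and Oprm1 at -0.38. This comparison shares its DMSO libraries with the previous ones against DMSO.

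The difference between the nocodazole change with inhibitor and that without it was tested directly, as the interaction of the 2 treatments. The interaction rests on the same libraries as the comparisons above and is not independent of them. It was positive and passed for all 4 receptors, where 9.52% of tested genes had a positive and 9.20% a negative interaction that passed. The log2 interaction was 2.81 ± 0.688 for Oprk1 (adjusted p from edgeR 0.0101), 1.96 ± 0.281 for Oprl1 (0.000236), 1.58 ± 0.246 for Oprd1 (0.000450) and 1.03 ± 0.294 for Oprm1 (0.0222). The Oprk1 call was lost with limma voom (adjusted p 0.0689), and edgeR gave Oprm1 an adjusted p of 0.0484 without inhibitor replicate 2. Leaving out replicate 1 of inhibitor plus nocodazole, inhibitor replicate 2 or nocodazole replicate 3, 1 at a time, gave interactions of 2.54 to 3.30 for Oprk1, 1.82 to 2.14 for Oprl1, 1.54 to 1.72 for Oprd1 and 0.92 to 1.32 for Oprm1, all past the threshold by edgeR.

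**Figure D2:**
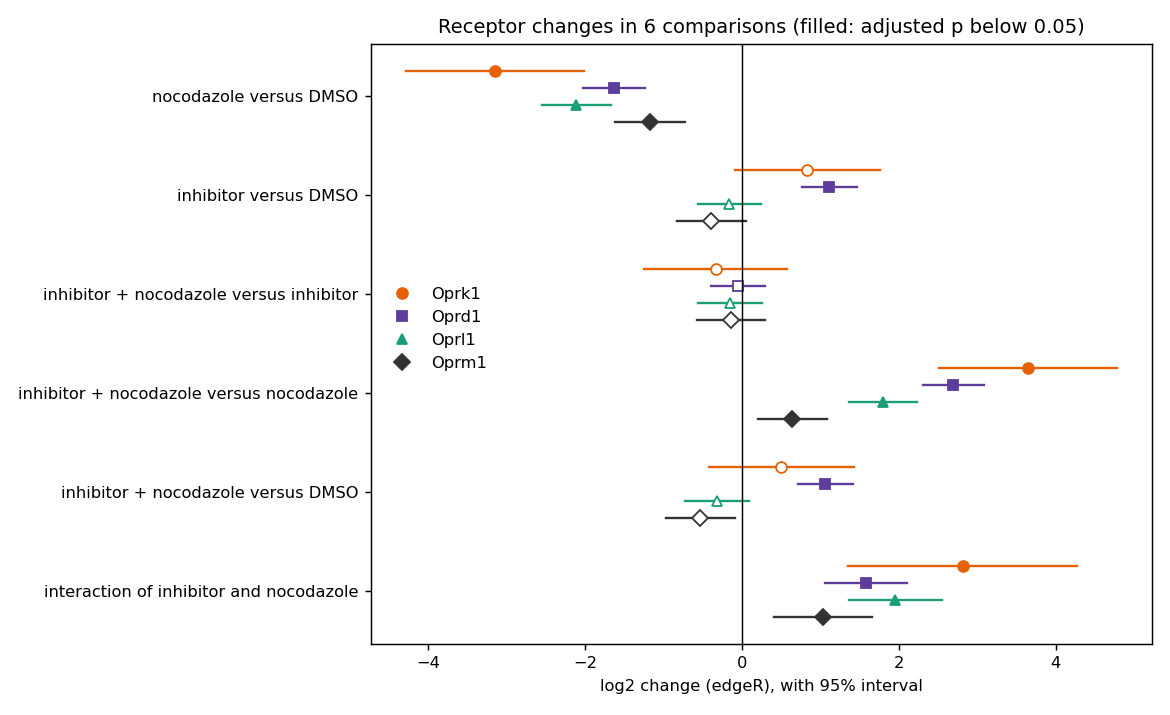
Log2 change of each receptor gene from edgeR (horizontal axis; marker, with 95% interval as line) in 5 comparisons and in the interaction of inhibitor and nocodazole (rows); filled markers passed an adjusted p of 0.05. All 4 receptors fell in nocodazole versus DMSO, none passed in inhibitor plus nocodazole versus inhibitor, and Oprd1 alone passed for the inhibitor versus DMSO.

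To compare levels between receptors, CPM were divided by the length of all annotated exons of each gene in kilobases. Oprm1 was highest in each group, at 10.4, 6.63, 11.4 and 14.9 CPM per kilobase with inhibitor plus nocodazole, nocodazole, inhibitor and DMSO. Oprl1 followed at 5.49, 1.57, 6.09 and 6.80 CPM per kilobase in the same groups, and neither its range nor that of Oprm1 overlapped the other in any group. Oprd1, at 1.62, 0.248, 1.67 and 0.773 CPM per kilobase, and Oprk1, at 0.922, 0.0731, 1.16 and 0.648 CPM per kilobase, were the lowest, and their ranges overlapped each other with inhibitor plus nocodazole, with inhibitor and in DMSO. The order of Oprd1 and Oprk1 depends on the length used: by the longest transcript, Oprk1 averaged 1.81, 0.143, 2.26 and 1.27 CPM per kilobase, above Oprd1 in the groups other than nocodazole.

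The balance between receptors differed between groups. Oprm1 made up 56.7% ± 2.38 of the length-scaled sum of the 4 receptors with inhibitor plus nocodazole, 77.0% ± 3.54 with nocodazole, 56.3% ± 1.80 with inhibitor and 64.6% ± 2.24 in DMSO (SD, n = 4 each). By the longest transcript these shares were 77.7%, 90.1%, 77.2% and 82.9%. Oprd1 made up 8.91% ± 0.891 with inhibitor plus nocodazole, 3.05% ± 0.887 with nocodazole, 8.42% ± 1.38 with inhibitor and 3.35% ± 0.374 in DMSO. The Oprl1 share was 19.2% ± 3.26 with nocodazole, and 29.7% ± 1.14, 29.9% ± 1.06 and 29.3% ± 2.34 with inhibitor plus nocodazole, inhibitor and DMSO. Oprk1 held 4.68% ± 1.91, 0.823% ± 0.207, 5.42% ± 1.93 and 2.79% ± 0.443 with inhibitor plus nocodazole, nocodazole, inhibitor and DMSO. The mu share was thus highest in the nocodazole group, and the delta share was higher in both groups given the inhibitor than in DMSO, without overlap in either case. Shares were also taken without replicate 1 of inhibitor plus nocodazole, inhibitor replicate 2 and nocodazole replicate 3 together, a choice made after seeing the data. This took out low libraries of the inhibitor-treated groups but a high library of the nocodazole group. Nocodazole replicates 1 and 2, lowest of that group in large-fibre markers, stayed in. It is therefore not a check on the differences in large-fibre markers. The Oprm1 share then averaged 55.7%, 75.4%, 55.6% and 64.6% with inhibitor plus nocodazole, nocodazole, inhibitor and DMSO. The Oprd1 share then averaged 8.61%, 3.29%, 7.80% and 3.35% in the same groups, the Oprl1 share 30.2%, 20.6%, 30.3% and 29.3%, and the Oprk1 share 5.51%, 0.730%, 6.29% and 2.79%.

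**Figure D3:**
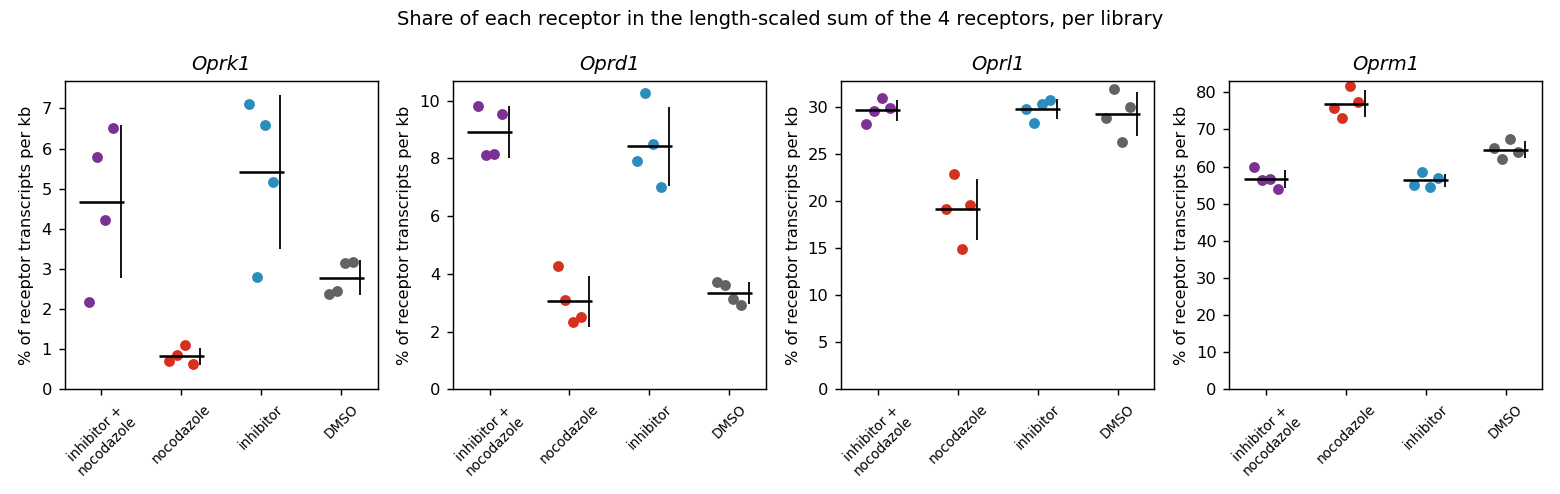
Share of each receptor in the sum of the 4 receptors' CPM per kilobase of annotated exon (percent), per library (points), with group mean and SD. The Oprm1 share averaged 77.0% in nocodazole and 64.6% in DMSO, and the Oprd1 share averaged 8.91% and 8.42% in the 2 groups given inhibitor and 3.35% in DMSO.

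Ratios of counts within a library do not depend on library scaling. The mean log2 ratio of Oprk1 to Oprm1 counts was -6.39 ± 0.322 with nocodazole and -4.36 ± 0.211 in DMSO (SD, n = 4 each), without overlap. The mean log2 ratio of Oprm1 to Oprd1 counts was 3.67 ± 0.146 with inhibitor plus nocodazole, 5.70 ± 0.439 with nocodazole, 3.75 ± 0.215 with inhibitor and 5.28 ± 0.185 in DMSO. For this ratio the DMSO libraries did not overlap either group given the inhibitor but did overlap the nocodazole libraries. The Oprm1 to Oprl1 ratio was 3.12 ± 0.320 with nocodazole and 2.24 ± 0.166 in DMSO. Without the same 3 libraries, Oprk1 to Oprm1 was -6.51 with nocodazole, Oprm1 to Oprd1 was 3.70, 5.55 and 3.84 with inhibitor plus nocodazole, nocodazole and inhibitor, and Oprm1 to Oprl1 was 2.98 with nocodazole.

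Over the 16 libraries, Pearson's r of log2 CPM between receptors was highest for Oprk1 with Oprl1 (0.953) and lowest for Oprm1 with Oprd1 (0.588). The libraries share their 4 treatments, so these values describe group differences as much as variation between libraries. The genes with the most similar patterns among 14362 compared were Mettl7a1 (r of 0.985), Aatk and Nsmaf for Oprk1, Kcnk18 (0.988), Prmt8 and Mettl7a3 for Oprm1, Fam84a (0.985), Kcnh7 and Ccser2 for Oprd1, and Galnt18 (0.993), Gnaz and Lrfn2 for Oprl1. Mettl7a1 and Mettl7a3 are near-identical relatives whose reads can be split between copies. Kcnk18, a background potassium channel of sensory neurons, averaged 4.18, 1.78, 5.45 and 7.28 CPM with inhibitor plus nocodazole, nocodazole, inhibitor and DMSO. Fam84a shared the Oprd1 pattern at higher levels, with 48.5 ± 9.01, 4.58 ± 0.0638, 42.7 ± 2.66 and 15.1 ± 1.12 CPM in the same groups.

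Reads of the receptors can be told apart from each other, since no stretch of 31 bases in their annotated transcripts was common to any pair, and at most 0.957% of such stretches (in Oprm1) occurred in any other gene. Exons of Oprm1 overlap those of Ipcef1 on the opposite strand, and whether counting used the strand is not given in the sources used here. Ipcef1 averaged 5.38, 4.76, 5.40 and 4.83 CPM with inhibitor plus nocodazole, nocodazole, inhibitor and DMSO and was not called in nocodazole versus DMSO. Cnksr3, which lies 80865 bases from Oprm1 on the other strand in the GRCm38 annotation and encodes a signalling scaffold, moved the other way from Oprm1. It averaged 10.5 ± 1.32 CPM with nocodazole and 1.27 ± 0.408 CPM in DMSO, a log2 change of 3.03 ± 0.267 (adjusted p from edgeR 3.97e-07). Rgs17, the neighbour on the other side at 836106 bases, fell as Oprm1 did, at 128 ± 9.64 CPM with nocodazole and 212 ± 7.66 CPM in DMSO, a log2 change of -0.72. Of the genes next to the other receptors that were tested, Atp6v1h beside Oprk1, Gm10300 beside Oprd1 and Myt1 beside Oprl1 rose, by log2 changes of 0.24, 1.41 and 0.39, and Ythdf2 beside Oprd1 fell by 0.12. Npbwr1 beside Oprk1, Lkaaear1 beside Oprl1 and Gm10945, which overlaps Oprm1, were left untested by the filter on low counts.

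The precursors of the receptors' own peptides were near the limit of detection in these neurons. Penk, which gives rise to enkephalins, averaged 0.147, 0.207, 0.168 and 0.161 CPM with inhibitor plus nocodazole, nocodazole, inhibitor and DMSO, and Pomc, the source of beta-endorphin, averaged 0.529, 0.666, 0.596 and 0.459 CPM. Pdyn, which encodes the dynorphins, had at most 5 counts in any library and Pnoc, which encodes nociceptin, at most 19, and both were left untested by the filter on low counts. Neither Penk nor Pomc passed in nocodazole versus DMSO (adjusted p from edgeR 0.763 and 0.142).

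Genes for the steps after the receptor were read from lists of known pathway genes in the same fit, where 44 of 59 tested genes on 10 lists passed in nocodazole versus DMSO. Of these, 36 fell and 8 rose, beside 19.0% of all tested genes that fell and 18.6% that rose. Of 5 alpha subunits of inhibitory G proteins, 4 fell and none rose, with a median log2 change of -0.27. Gnaz, whose product is an inhibitory subunit resistant to pertussis toxin, led them at 91.7 ± 2.55 CPM with nocodazole and 163 ± 9.67 CPM in DMSO, a log2 change of -0.83 ± 0.081 (adjusted p from edgeR 1.18e-06). Gnai2, Gnai1 and Gnao1 fell by 0.36, 0.27 and 0.27 on the log2 scale. Of 3 presynaptic calcium channel subunits, Cacna1a and Cacna2d1 fell, by 0.21 and 0.37. The Cacna2d1 call was lost without DMSO replicate 1, 2 or 4 or nocodazole replicate 1 or 2, with adjusted p from edgeR up to 0.0992.

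Among the 3 tested GIRK subunits, which form the potassium channels that opioid receptors open, 1 fell and 1 rose. The shares over all tested genes were 19.0% and 18.6%. Kcnj3 (GIRK1) had 1.68, 1.35, 6.20 and 2.89 CPM with nocodazole, against 16.9, 19.0, 15.6 and 20.01 CPM in DMSO. Kcnj6 (GIRK2) had 7.17, 4.10, 8.86 and 8.75 CPM with nocodazole, against 0.435, 0.498, 0.392 and 0.403 CPM in DMSO. Neither gene's groups overlapped, and Kcnj6 was low in every DMSO library and Kcnj3 high. The log2 change was -2.56 ± 0.483 for Kcnj3 (adjusted p from edgeR 0.000555) and 4.05 ± 0.309 for Kcnj6 (9.26e-08), while Kcnj9 (GIRK3), at 0.75, did not pass (0.233). With inhibitor plus nocodazole, Kcnj3 averaged 14.0 CPM and Kcnj6 averaged 0.435 CPM, and their interactions of 2.44 ± 0.646 and -3.59 ± 0.484 both passed (adjusted p from edgeR 0.0155 and 0.000138). Kcnj3 was again lowest of its group in replicate 1 of inhibitor plus nocodazole, at 3.96 CPM, and in inhibitor replicate 2, at 6.83 CPM.

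Most adenylyl cyclases, receptor kinases and arrestins also fell, beside 19.0% of all tested genes that fell and 18.6% that rose. Of 8 adenylyl cyclases, the enzymes that opioid receptors slow, 6 fell and 1 rose, with a median log2 change of -0.51. Adcy7 rose by 1.19 ± 0.173, and Adcy2, Adcy8 and Adcy5 fell by 0.77, 0.69 and 0.61. The Adcy2 call was lost without any 1 of the 4 DMSO libraries or without nocodazole replicate 1 or 2 (adjusted p from edgeR up to 0.116). Of 6 receptor kinases and arrestins, which switch off and internalise active receptors, 5 fell, led by Grk3 at -0.72 ± 0.168, with Grk5, Grk6 and Arrb1 at -0.43, -0.38 and -0.36. Of 10 genes for RGS proteins, which speed the shut-off of G proteins, and for a receptor sorting protein, 5 fell and 2 rose, with Rgs4 at -1.14 ± 0.126, Rgs20 at 0.90 ± 0.144, Rgs8 at 0.79 ± 0.282 and Rgs17 at -0.72 ± 0.078. The Rgs8 call was lost without DMSO replicate 3 or 4 or nocodazole replicate 1, 2 or 4 (adjusted p from edgeR up to 0.108), which left 1 that rose. Falls of an RGS gene and a receptor kinase, counted but not named here, were also lost in such fits (adjusted p from edgeR up to 0.111).

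Of 5 enzymes that make or break peptides, 3 fell and 1 rose, beside 19.0% and 18.6% of all tested genes. Mme, which encodes the enkephalin-degrading enzyme neprilysin, changed by -1.21, Pcsk2 and Pcsk1, which cut precursors, by -0.60 and -0.40, and Pam, which amidates peptides, by 0.57. The Mme call was lost without DMSO replicate 2 or 4 or nocodazole replicate 1 or 2 (adjusted p from edgeR up to 0.0842). The Pcsk1 call was lost without DMSO replicate 2, 3 or 4 or nocodazole replicate 1, 2 or 4 (up to 0.117). Ogfr, the opioid growth factor receptor gene, had a log2 change of 0.13 and did not pass (adjusted p from edgeR 0.143).

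**Figure D4:**
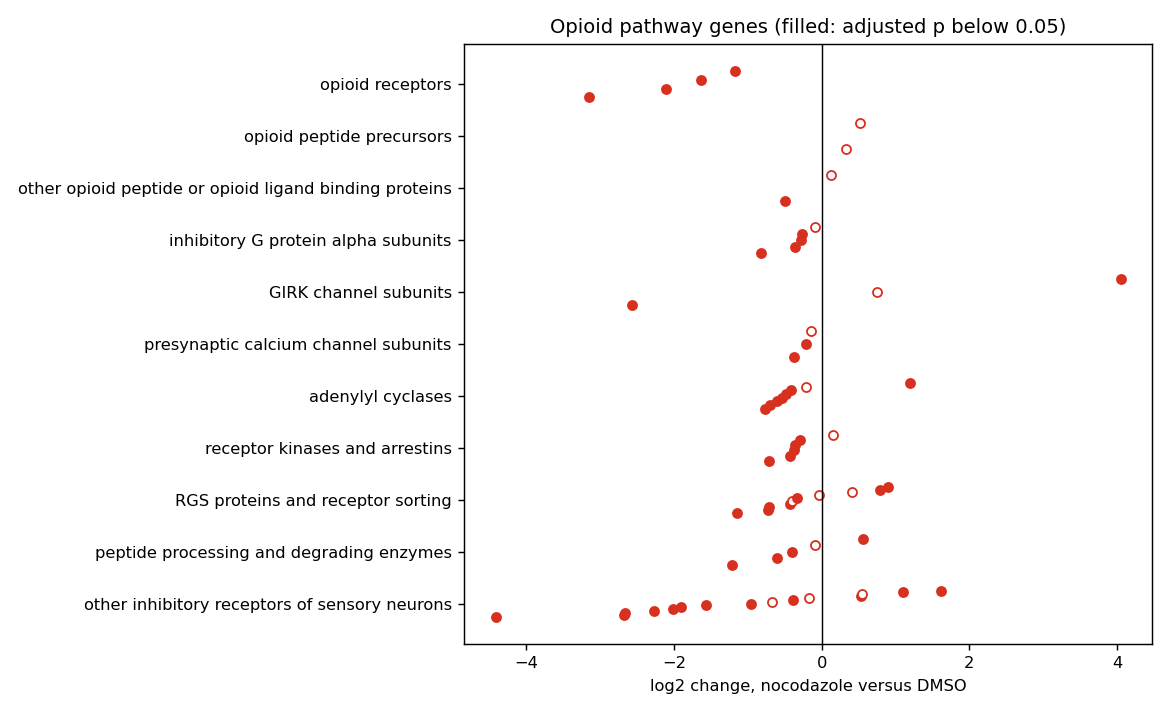
Log2 change in nocodazole versus DMSO (horizontal axis) of each tested gene of the opioid receptor list and 10 pathway lists (rows); filled points passed an adjusted p of 0.05 by edgeR. The 4 receptors lay between -3.14 and -1.17, most G protein, cyclase and kinase genes lay between -1 and 0, and the GIRK subunits Kcnj3 and Kcnj6 lay at -2.56 and 4.05.

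Other receptors that couple to inhibitory G proteins in sensory neurons moved in both directions. Of 15 tested, 9 fell and 3 rose, with a median log2 change of -0.95. Among all tested genes 19.0% fell and 18.6% rose, so the count that rose was close to that share. The largest changes were those of Npy2r, a neuropeptide Y receptor, at -4.41 ± 0.645, Chrm2, a muscarinic receptor, at -2.68 ± 0.62, Htr1b, the serotonin receptor targeted by triptans, at -2.67 ± 0.356, and Sstr1, a somatostatin receptor, at -2.27 ± 0.529 (adjusted p from edgeR 5.82e-05, 0.00280, 2.50e-05 and 0.00297). Npy2r averaged 0.245 CPM with nocodazole and 5.21 CPM in DMSO, and Htr1b averaged 8.34 CPM and 52.8 CPM in the same groups. The 3 that rose, named after their values were seen, were Adra2a, the alpha-2A adrenergic receptor, at 1.62, Cnr1, the cannabinoid receptor, at 1.10, and Adora1, an adenosine receptor, at 0.53. The Adora1 call was lost without DMSO replicate 1, 3 or 4 or nocodazole replicate 2 or 4 (adjusted p from edgeR up to 0.0697). A receptor that fell, counted but not named here, lost its call in 4 such fits (adjusted p from edgeR up to 0.0899).

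In inhibitor plus nocodazole versus inhibitor, edgeR called none of the 59 tested genes of the 10 pathway lists, DESeq2 and limma voom called none either, and 3 had an unadjusted p below 0.05 by edgeR. In inhibitor versus DMSO, 10 of the 59 fell and 1 rose, beside 7.24% and 5.78% of all tested genes. Of these 11 calls, 4 were kept without inhibitor replicate 2, and 6 without inhibitor replicate 3 or without DMSO replicate 4. Here 1 of the 15 other inhibitory receptors rose (Chrm4, at 0.34) and 2 fell (Galr1 at -1.27 and Gabbr2 at -0.22). The Galr1 call was lost without DMSO replicate 4 or inhibitor replicate 2 (adjusted p from edgeR 0.0582 and 0.0569), and the Gabbr2 call without DMSO replicate 2 or 4 or inhibitor replicate 2 or 3 (up to 0.107).

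In inhibitor plus nocodazole versus nocodazole, 7 of the 15 other inhibitory receptors rose and 3 fell, with a median log2 change of 0.18, beside 2.25 for the 4 opioid receptors. Of all tested genes 17.7% rose and 16.2% fell here. The interaction passed for 9 of the 15, with 7 positive and 2 negative, beside 9.52% positive and 9.20% negative of all tested genes, and its largest values were 4.02 for Npy2r, 2.89 for Chrm2, 2.40 for Htr1b and 2.11 for Sstr1 (adjusted p from edgeR 0.00346, 0.0223, 0.00267 and 0.0414). Chrm2 did not pass with limma voom (adjusted p 0.0616), and Sstr1 did not pass in 12 of the 16 fits that left out 1 library (adjusted p from edgeR up to 0.0913).

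**Figure D5:**
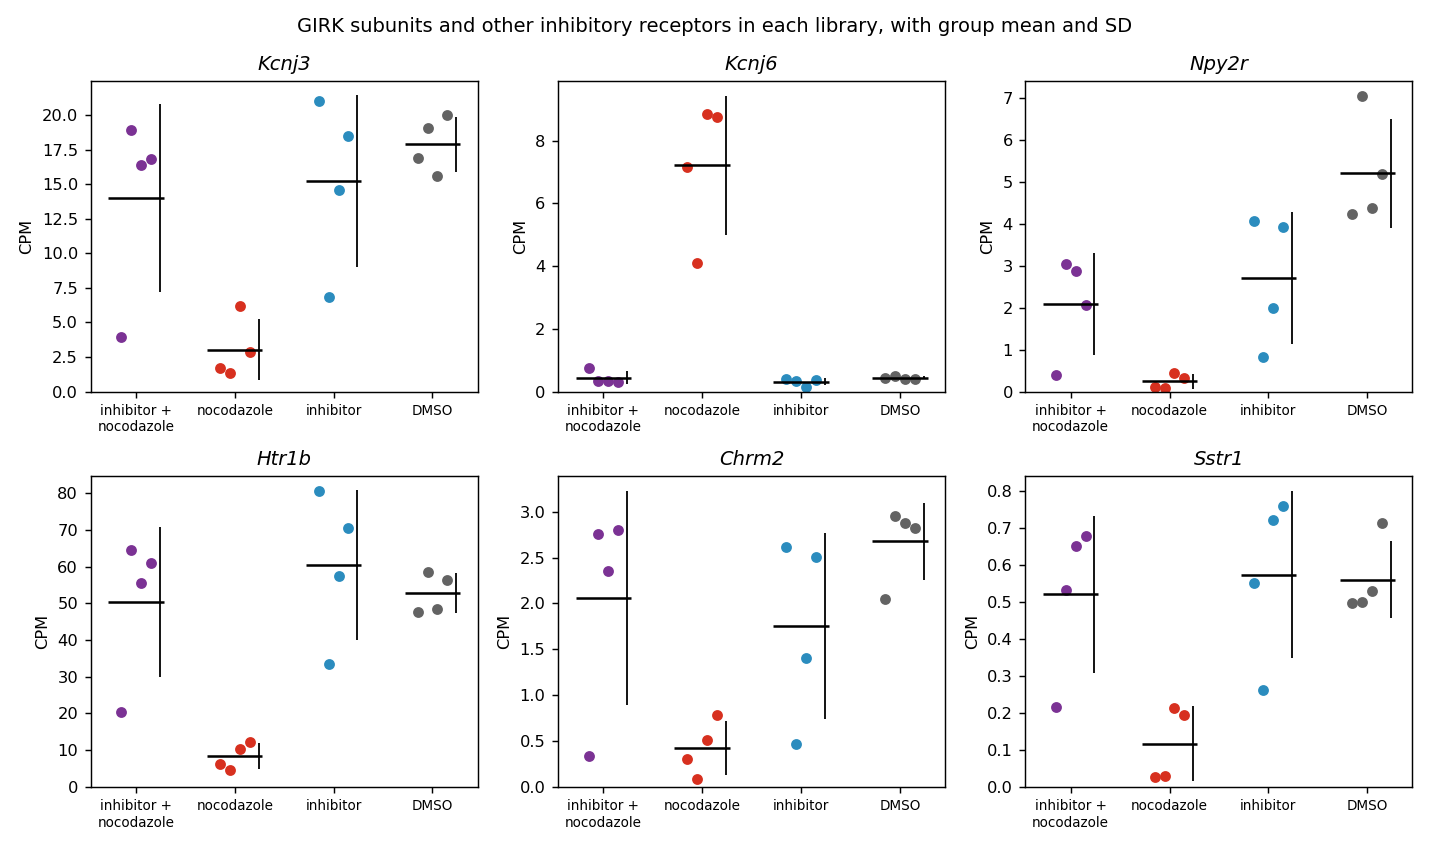
CPM of 2 GIRK subunits and 4 other inhibitory receptors in each library (points), with group mean and SD. Kcnj6 averaged 7.22 CPM with nocodazole and at most 0.435 CPM in the other groups, and Kcnj3, Npy2r, Htr1b, Chrm2 and Sstr1 had their lowest group mean with nocodazole, with replicate 1 of inhibitor plus nocodazole and inhibitor replicate 2 the lowest of their groups.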

How the data were processed

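Counts of reads per Ensembl gene were deposited by the authors as whole numbers in 1 table, not normalized; the submitters' processing notes name STAR, Salmon and GRCm39, and the counting step is not given in the sources used here. Libraries used ribosomal depletion (Kapa RiboErase), per the labels' protocols. Symbols came from the supplied GENCODE and gene name tables (52080 of 55356 identifiers, 94.1%). Lengths, neighbours and shared stretches came from GENCODE M21 on GRCm38, a different build, so no coordinates were taken from the count table.

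The counts were fitted in edgeR 4.0.16 (R 4.3.3; TMM factors 0.959 to 1.06, default filterByExpr, 1 mean per group over 16 libraries, quasi-likelihood F test, Benjamini-Hochberg over 19156 genes, called below 0.05). SE is the change divided by the square root of F, and 95% intervals use the t distribution of the fit. Alternatives were DESeq2 1.42.0, limma 3.58.1 voom, other size factors, no filter, 2 groups only, a replicate block and leaving out each library. The 24 within-group library pairs differed by far more than sampling noise (chi-square per degree of freedom 8.28 to 51.3). The procedure was tested on simulated data. The receptors, lists and tests were chosen with earlier results of these data known. In each pathway list up to 4 called genes with the largest change were named, plus all 4 peptide precursors; the 3 most correlated genes (mean of at least 1 CPM, prior count 2) and the annotated neighbours were named for each receptor. A single listed gene is counted in the list totals but not reported here. With 15 to 41 counts of Oprk1 per nocodazole library, counting error there is appreciable.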

Additional observations from a re-analysis of the deposited data

Results flagged for a closer look

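Among the 4 nocodazole libraries, replicate 3 stood apart for Oprk1, at 1.24 CPM with the other libraries at 0.441 to 0.509 CPM. Its gap was 0.916 of the group's range, above the critical value of Dixon's test for 4 samples. This was 1 of 16 combinations of receptor and group examined, and chance alone marks about 1 in 20. The large-fibre marker sum of this library was 581 CPM, with 362, 279 and 563 CPM in replicates 1, 2 and 4. The part of that in its Oprk1 value was not tested.

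The nocodazole change of each receptor differed between cultures with and without the inhibitor. The difference of log2 changes (with inhibitor minus without) was 2.81 for Oprk1, 1.96 for Oprl1, 1.58 for Oprd1 and 1.03 for Oprm1 (adjusted p from edgeR 0.0101, 0.000236, 0.000450 and 0.0222). In the inhibitor-treated cultures the 95% interval of the nocodazole change included 0 for each receptor.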

How the results depend on the processing

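Across 524 values of the 4 receptors under alternative settings, 508 kept their direction and side of the threshold, 8 lost and 4 gained a call, and 4 uncalled values changed sign. Many of these fits left out a library outside the groups compared, and uncalled values that stayed uncalled are among the 508. The total therefore says little about how firm each call is. The Oprk1 interaction was 2.77 with limma voom and missed the threshold. Oprm1 in inhibitor plus nocodazole versus DMSO passed at -0.54 with DESeq2 and at -0.55 with 2 groups only, and ranged from -0.64 to -0.38 when 1 library was left out. Oprm1 in inhibitor plus nocodazole versus nocodazole did not pass with 2 groups only (0.64; adjusted p from edgeR 0.0678) and ranged from 0.52 to 0.91 with 1 library left out, and Oprm1 in inhibitor versus DMSO passed at -0.39 with 2 groups only. In inhibitor plus nocodazole versus inhibitor, leaving out 1 library gave -0.17 to 0.09 for Oprd1, -0.30 to 0.03 for Oprl1 and -0.25 to 0.01 for Oprm1. Without replicate 1 of inhibitor plus nocodazole the values were 0.086 for Oprd1, 0.027 for Oprl1 and 0.0075 for Oprm1, and without inhibitor replicate 1 Oprd1 was at 0.04. The cause was not tested.

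The count of genes called in inhibitor plus nocodazole versus inhibitor was 16, with 125 by DESeq2, 28 without the low-count filter, 6 with 2 groups only, and 3 to 88 with 1 library left out. The count was 1242 to 3087 for inhibitor versus DMSO (2494 with all libraries) and 2096 to 3510 for inhibitor plus nocodazole versus DMSO (3207 with all libraries) when 1 library was left out. The replicate numbers were not used as pairs in the main fit. Correlations of same-numbered deviations ran from -0.40 to 0.23, which cannot settle whether samples were paired. With a replicate block the count for inhibitor plus nocodazole versus inhibitor was 5, and the block changed no receptor call. Such a block does not capture differences between libraries that do not follow the replicate numbers. Of 2897 pathway gene values, 234 lost their call and none changed sign. Of 1263 pathway list counts, 145 moved by over 1.5 times. These totals too include fits without a library outside the groups compared. Precision for Oprk1 and Oprd1 in nocodazole is limited by counts of 15 to 43 per library.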
